A study of Mus musculus with 4 samples.

Results

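The testis-specific serine kinase (TSSK) genes Tssk1, Tssk2, Tssk3, Tssk4, Tssk5 and Tssk6 were examined in a map of CTCF binding from mouse testis. The 6 genes, chosen by name from 21523 protein-coding genes of the autosomes and X, lie at 5 loci, since Tssk1 and Tssk2 are neighbours. Peaks were taken whose summit, the base of highest signal, lay in a member or within 50 kb of either end. This gave 42 of the 51871 peaks of the list. Because Tssk1 and Tssk2 shared the same 6 peaks, there were 48 pairs of gene and peak.

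The binding data came from chromatin immunoprecipitation and sequencing (ChIP-seq) of CTCF in whole testes of F1 mice, the offspring of a B6 by CAST cross, with no treatment or age named in the labels. The series has 4 samples, 2 of immunoprecipitated DNA and 2 of input DNA, and all carry both parental genomes. The values are from 1 merged peak list with no value per sample, so no error between animals can be given, no difference below has a replicate check, and the read depth is unknown. The testis was not sorted, so a site used in spermatids and a site used in other testis cells cannot be told apart, and expression was not measured.

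CTCF is a zinc-finger protein that binds a long DNA motif, halts the cohesin complex and thereby marks the anchors of chromatin loops. The TSSK proteins are serine/threonine kinases made in haploid spermatids, after meiosis. There they act in the remodelling of the round cell into a sperm, and male mice that lack Tssk6, Tssk3 or both Tssk1 and Tssk2 are infertile. Tssk1, Tssk2 and Tssk6 are short genes without introns.

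Only Tssk3 and Tssk6 had CTCF at the gene itself, and Tssk1 and Tssk2 were the farthest from it. A summit within 1 kb of an annotated end was present for 2 of the 6 genes (33.3%), and it was present for 39.1% of all protein-coding genes and for 30.7% of the 7677 that are at most 10 kb long. The members' share lay between these 2 backgrounds. It was below the 47.6% of the 4534 protein-coding genes with 6 to 11 coding genes in their window, as the members had. With 6 genes no difference can be read from this. The distance from the nearest summit to a gene end was 0.368 kb at Tssk6, 0.475 kb at Tssk3, 2.96 kb at Tssk5, 7.96 kb at Tssk4, 11.4 kb at Tssk2 and 15.8 kb at Tssk1. Along this order, 28.0%, 30.9%, 53.8%, 69.1%, 74.3% and 78.4% of protein-coding genes had a nearer summit. Among peaks with a fold of at least 5, the distance was 0.623 kb at Tssk6 and 5.71 kb at Tssk5, so Tssk3 was then the nearest. A summit lay inside 2 members, Tssk3 and Tssk6, against 53.1% of all protein-coding genes and 23.2% of those up to 10 kb. The one inside Tssk6 was weak, with a fold of 3.47, above that of 7.07% of all peaks. At a fold of at least 5, only Tssk3 held a summit inside.

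**Figure D1:**
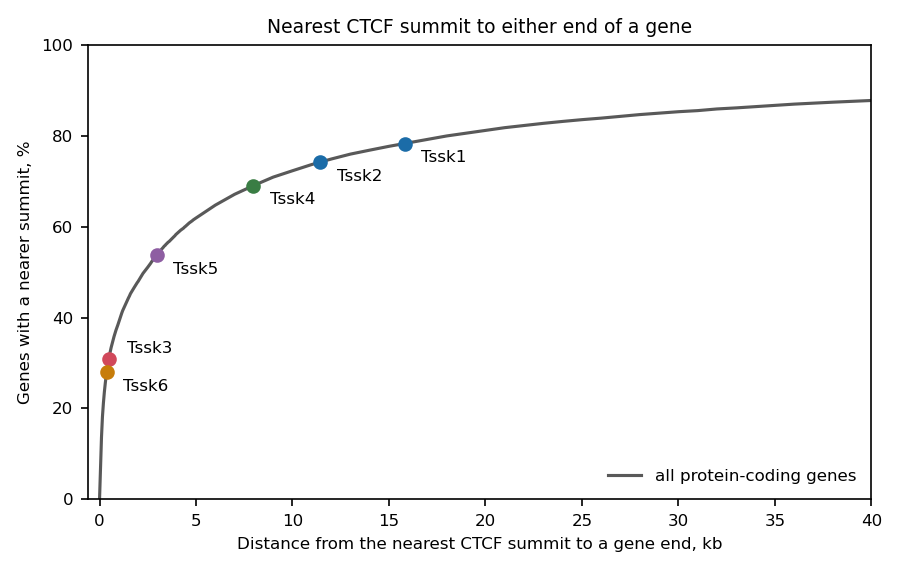
Distance from the nearest CTCF summit to either end of a gene (x axis, kb) against the percentage of protein-coding genes with a nearer summit (y axis), with the line for all 21523 genes and a point for each TSSK gene. Tssk6 and Tssk3 sit within 1 kb on the steep part of the line, and Tssk1 is the farthest at 15.8 kb.

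The highest fold of each window was reached at a summit 11 to 39.1 kb from the kinase gene. A place outside the gene is likely for a short gene in a window that reaches 50 kb to either side. How often this holds over all genes was not computed, so it is not read as a trait of the members. Fold enrichment, the authors' ratio of signal to background at the summit, reached 14.97 near Tssk3, 14.1 near Tssk1 and Tssk2, 13.4 near Tssk4, 11.3 near Tssk5 and 10.4 near Tssk6. These summits were 33.5 kb from Tssk3, 33.2 kb from Tssk1, 28.8 kb from Tssk2, 14.2 kb from Tssk4, 39.1 kb from Tssk5 and 11 kb from Tssk6. At Tssk6 the margin was small, since the summit 0.623 kb from the gene had a fold of 9.97. By −log10 q, the authors' measure of confidence, other peaks were the strongest near Tssk5 (58.2, at 76417238) and Tssk6 (57.9, at 69919122). Among the 19323 protein-coding genes with a summit in the same window, the median of the highest fold was 11.2. Of these genes, 86.2% had a lower highest fold than Tssk3 and 40.6% a lower one than Tssk6, the extremes of the family. Over the 42 peaks the median fold was 6.59, against 6.84 over the 51630 peaks of the autosomes and X. Of the 42, 8 peaks (19.05%) had a fold of 10 or more, against 19.7% of all peaks.

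**Figure D2:**
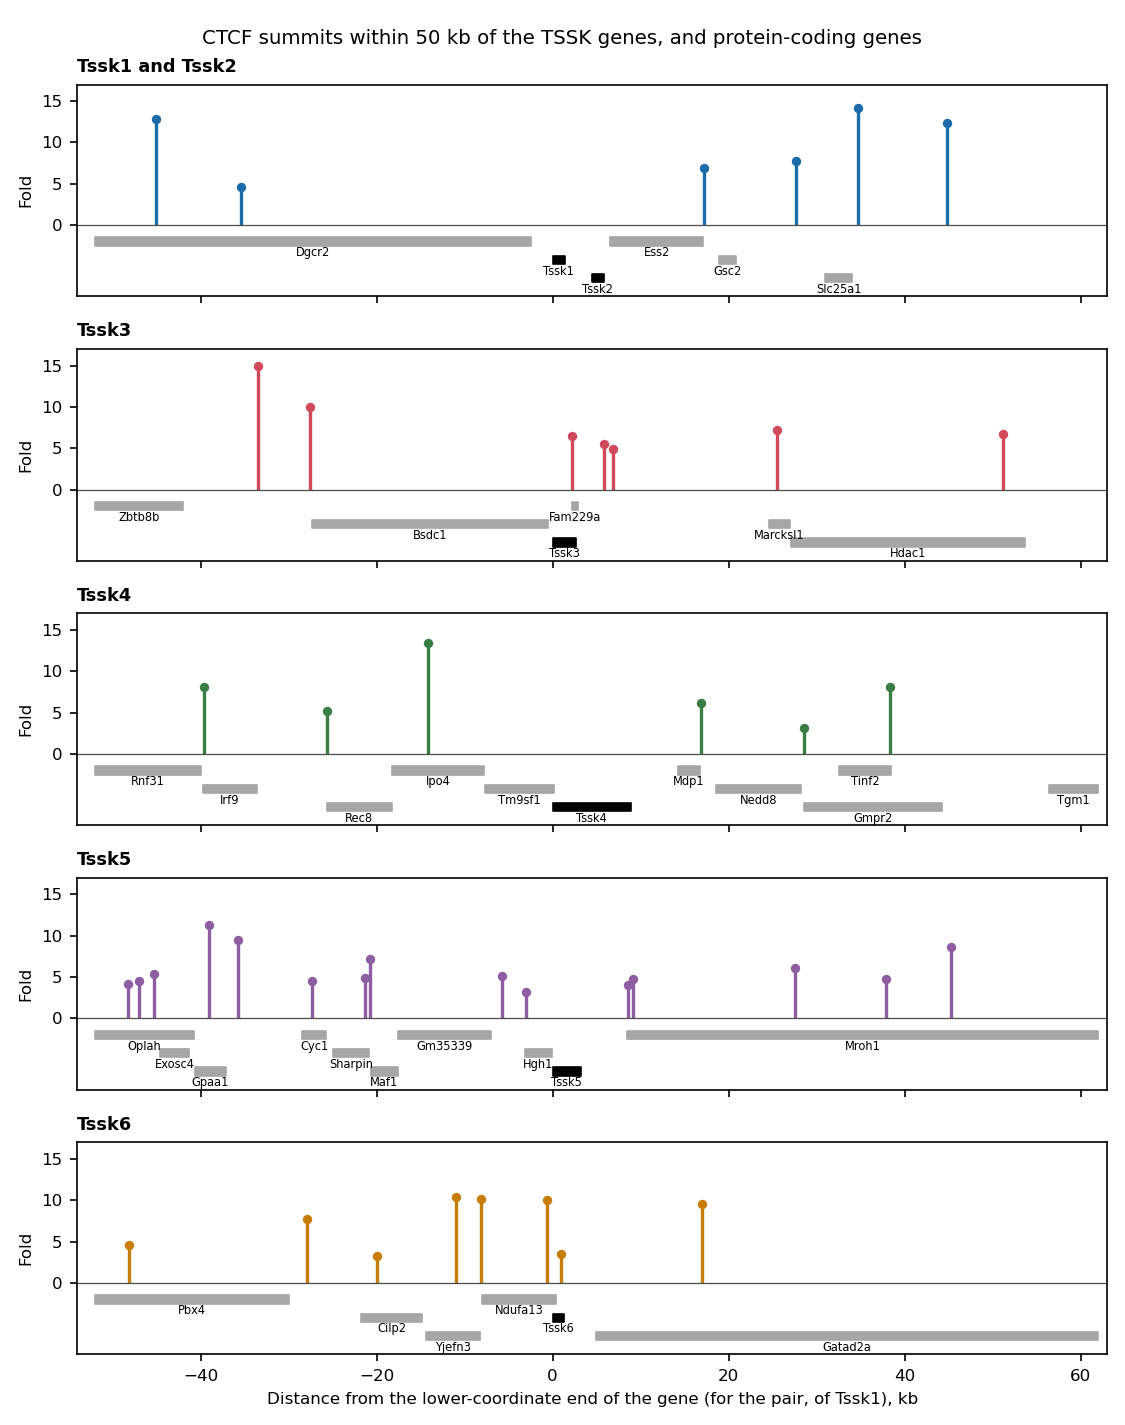
CTCF summits as vertical lines whose height is the fold enrichment (y axis), by distance from the lower-coordinate end of the gene in kb (x axis), for the 5 TSSK loci. Black bars are TSSK genes and grey bars are other protein-coding genes, cut where they leave the panel. Tssk3 and Tssk6 have a summit over the gene, and Tssk1, Tssk2, Tssk4 and Tssk5 have none.

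Tssk1 (chromosome 16, 17894203 to 17895653, mm10) and Tssk2 (17898637 to 17900024), tandem genes whose products share the spermatid substrate TSKS, are 2983 bp apart and held no summit between them. The nearest summits were at 17858784, inside Dgcr2, with a fold of 4.60, and at 17911468, with a fold of 6.92. These bounded an interval of 52.7 kb that held Tssk1, Tssk2 and Ess2 whole and part of Dgcr2. Across all protein-coding genes, the interval between the flanking summits had a median of 77.9 kb, or 49.4 kb for genes up to 10 kb long. Genes with 6 coding genes in their window, as here, had a median interval of 46.5 kb. The pair's interval was slightly above this last median. The measure runs from the last summit before a gene to the first after it. The medians thus also cover longer genes and genes with summits inside, which the pair lacked.

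The summit on the side of Tssk2 stood 120 bp upstream of the start of Ess2, a gene for a nuclear protein linked to splicing. Its −log10 q, the authors' measure of confidence, was 61.8, above that of 84.3% of all peaks, although its fold was above that of only 51.0%. Beyond it, summits at 17921884, 17928864 and 17939053 had folds of 7.80, 14.1 and 12.4. The middle one, the strongest of the locus, was 645 bp upstream of Slc25a1, which encodes the mitochondrial citrate carrier. On the other side, a second summit inside Dgcr2 at 17849184 had a fold of 12.8. The pair was thus flanked on both sides by a peak of fold over 12, at 45.0 kb below Tssk1 and 28.8 kb above Tssk2. The share of all genes flanked in this way was not computed.

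The sequence under the Ess2 summit is shown because it is the nearest bound site to the pair. It was read on the strand of Ess2, from chromosome 16, 17911438 to 17911498, with the summit base in capitals.
Ess2: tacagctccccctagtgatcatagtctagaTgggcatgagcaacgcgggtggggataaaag

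Tssk3 (chromosome 4, 129489008 to 129491730), whose product is needed for sperm formation, carried a summit inside it at 129491255, where the fold was 6.51 and the −log10 q 16.8. The fold was above that of 46.2% of all peaks. The same summit lay inside Fam229a, a short gene on the other strand that overlaps the first part of Tssk3. It was 65 bp downstream of the listed start of Fam229a and 485 bp upstream of that of Tssk3, so it cannot be assigned to one of them. Its peak spanned 129491033 to 129491932 and began 12 bases beyond the 300-base promoter window of Tssk3, which reaches from 250 bases before the start to 50 after it. It covered 207 bases of the corresponding window of Fam229a.

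Both windows are printed because the binding site sits beside these divergent starts. For Tssk3 (chromosome 4, 129490721 to 129491020, minus strand) capitals mark the transcribed bases from the start onwards, and for Fam229a (129490940 to 129491239, plus strand) they mark the part under the peak.
Tssk3: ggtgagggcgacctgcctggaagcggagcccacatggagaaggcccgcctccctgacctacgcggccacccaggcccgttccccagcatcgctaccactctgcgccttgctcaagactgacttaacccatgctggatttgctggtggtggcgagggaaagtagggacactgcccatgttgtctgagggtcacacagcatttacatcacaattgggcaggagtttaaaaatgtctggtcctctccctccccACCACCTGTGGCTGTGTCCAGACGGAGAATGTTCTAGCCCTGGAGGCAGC
Fam229a: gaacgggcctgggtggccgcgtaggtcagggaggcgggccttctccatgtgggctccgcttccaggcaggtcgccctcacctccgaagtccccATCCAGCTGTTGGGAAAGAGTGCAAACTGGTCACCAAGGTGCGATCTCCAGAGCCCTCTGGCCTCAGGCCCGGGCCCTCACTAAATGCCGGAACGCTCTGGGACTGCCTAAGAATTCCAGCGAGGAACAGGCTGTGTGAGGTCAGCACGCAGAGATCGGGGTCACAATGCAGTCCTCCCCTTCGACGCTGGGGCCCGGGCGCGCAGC

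Farther from Tssk3, weaker summits followed at 129494897 and 129495896, with folds of 5.47 and 4.94, the latter 4.17 kb from the gene. The summit at 129514531, 950 bp from Marcksl1, which encodes a relative of the actin-binding protein MARCKS, had a fold of 7.16. That at 129540191, inside the histone deacetylase gene Hdac1, had a fold of 6.67. On the side of Bsdc1, the summits at 129461475 and 129455535 had folds of 9.95 and 14.97, and the second had a −log10 q of 94.0, above 99.6% of all peaks. No summit fell in the 29.8 kb between the Bsdc1 summit and that inside Tssk3. The highest folds of this window were thus on the side of Bsdc1. By −log10 q the Marcksl1 summit, on the other side, reached 55.6, above the 33.7 of the nearer Bsdc1 summit. The sites closest to the kinase had folds of 4.94 to 6.51.

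Tssk4 (chromosome 14, 55643651 to 55652539), whose product acts in the sperm tail, had no summit inside and the fewest summits for its surroundings. Its window held 6 summits and 11 coding genes. The 176 protein-coding genes with that many neighbours had a median of 10 summits, with 25th and 75th percentiles of 8 and 12. The gene lay in an interval of 31.003 kb between a summit of fold 13.4 inside the nuclear import gene Ipo4 (55629492) and one of fold 6.19 at the phosphatase gene Mdp1 (55660495). The interval also held Tm9sf1 and Mdp1 whole, and genes in equally crowded windows had a median interval of 23.97 kb. That median also covers genes with summits inside, which Tssk4 lacked.

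Most summits around Tssk4 stood at the starts of other genes. Within 1 kb of a coding gene end lay 5 of the 6 (83.3%), all but the one in Ipo4, where 49.7% of the gene and peak pairs in windows with 11 coding genes and 16.3% of all peaks did so. They stood 95 bp from the start of Irf9 (fold 8.13), a factor of the interferon response, 132 bp from that of Rec8 (fold 5.21), 44 bp from that of Mdp1, 44 bp from that of Gmpr2 (fold 3.21), which encodes GMP reductase, and 203 bp from that of Tinf2 (fold 8.07). Rec8 encodes the meiotic kleisin subunit of cohesin, and Tinf2 a subunit of the telomere-capping shelterin complex. The Rec8 and Gmpr2 summits were weak, with −log10 q of 12.05 and 3.79, and the Tinf2 summit reached 64.7 in a peak 1405 bp wide, the widest of the 42.

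The summit sequences at Rec8, Mdp1 and Tinf2 are given as the sites that surround Tssk4, each on the strand of its gene with the summit base in capitals. They lie on chromosome 14 at 55618004 to 55618064, 55660465 to 55660525 and 55681990 to 55682050.
Rec8: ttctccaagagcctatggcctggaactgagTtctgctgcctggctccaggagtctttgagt
Mdp1: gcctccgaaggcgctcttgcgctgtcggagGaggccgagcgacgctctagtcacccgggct
Tinf2: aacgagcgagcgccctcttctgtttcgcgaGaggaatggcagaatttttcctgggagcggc

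Tssk5 (chromosome 15, 76371958 to 76375191) had the most crowded window, with 15 summits, more than 97.3% of protein-coding genes. Its window also held 10 coding genes, more than for 96.2% of genes. Among the 280 genes with 10 coding genes around them, the median was 9 summits and 10.4% had 15 or more. Most of the 15 were weak: the median fold was 4.94, from 3.21 to 11.3, and 8 of them were under 5. By locus, the median fold was 10.1 for Tssk1 and Tssk2, 8.64 for Tssk6, 7.13 for Tssk4 and 6.67 for Tssk3, so the locus with the most summits had the lowest median.

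The summits nearest to Tssk5 were at 76368998, inside Hgh1, 2.96 kb away with a fold of 3.21, and at 76380573, 135 bp from an end of Mroh1, 5.38 kb away with a fold of 3.998. The interval between them, 11.6 kb, held no other whole coding gene and was wider in 96.5% of protein-coding genes. Genes with 10 coding genes in their window, as here, had a lower median interval, 27.8 kb, than the 77.9 kb of all genes. Each interval also takes in the gene itself, 3.23 kb long at Tssk5 against a median of 17.4 kb. Above a fold of 8 there were 3 summits. They stood at 76332893 inside Gpaa1 (fold 11.3), which encodes a subunit of the GPI anchor transamidase, at 76336258 beside it (9.55) and at 76417238 inside Mroh1 (8.63). A summit 81 bp from Sharpin, a subunit of a ubiquitin ligase, had a fold of 7.14. The remaining 11 had folds from 3.21 to 6.15.

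Tssk6 (chromosome 8, 69902184 to 69903518), whose product is needed for chromatin condensation in the spermatid, had summits on either side of its start. The summit at 69901561 lay 623 bp upstream of it, where the fold was 9.97 and the −log10 q 38.3. That at 69903150 lay 966 bp downstream, inside the gene, where the values were 3.47 and 3.68. The upstream fold was above that of 80.2% of all peaks and the inner one above that of 7.07%. The upstream summit lay inside Ndufa13, a gene for a subunit of respiratory complex I on the other strand that overlaps the first part of Tssk6, 459 bp from its start. It cannot be assigned to one of the genes.

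The upstream peak (69901340 to 69901756) stopped 177 bases short of the promoter window of Tssk6. The window (chromosome 8, 69901934 to 69902233, plus strand) is printed here because it lies between the 2 summits. Capitals mark the transcribed bases.
Tssk6: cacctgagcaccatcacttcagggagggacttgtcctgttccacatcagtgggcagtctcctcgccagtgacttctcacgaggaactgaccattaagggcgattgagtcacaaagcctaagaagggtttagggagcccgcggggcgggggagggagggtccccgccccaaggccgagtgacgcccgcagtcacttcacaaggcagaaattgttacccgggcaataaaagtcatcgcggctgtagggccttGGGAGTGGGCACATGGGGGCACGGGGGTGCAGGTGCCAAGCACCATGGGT

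Of the 8 summits around Tssk6, 4 had folds close to 10, all on the lower-coordinate side except the one inside Gatad2a. Besides the upstream one they were at 69891184 inside Yjefn3 (10.4), at 69894048 between Yjefn3 and Ndufa13 (10.1) and at 69919122 inside Gatad2a (9.53), which encodes a subunit of the NuRD chromatin remodeller. The other summits had folds of 7.74 near the homeobox gene Pbx4, 4.60 inside it and 3.22 inside Cilp2. This was the only one of the 5 loci where a peak of fold over 9 stood within 1 kb of the kinase gene.

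The site at 69894048, 8.14 kb from Tssk6, lay in a promoter window that held a CTCF motif by the search used here. The motif was CC, any 3 bases, AG, any 2 bases and GGC, on either strand. It occurred in 8.61% of 32851 promoter windows of 300 bases, in 23.4% of the 4278 with a summit inside and in 6.40% of the others. A listed promoter window was overlapped by a peak 11 times, at the loci of Tssk1 and Tssk2, Tssk3, Tssk4 and Tssk6. Of these 11 windows only that of Yjefn3 held the motif. The windows of Slc25a1, Fam229a, Irf9 and Nedd8 were overlapped without a summit inside, so the 23.4% is not their background. The Tssk5 locus was not searched. None of the 5 listed TSSK promoters (Tssk1, Tssk2, Tssk3, Tssk4 and Tssk6) held the motif, and none had a summit inside. No match says only that these letters are not in the window.

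The Yjefn3 promoter is shown for that match. It is on the minus strand of chromosome 8, 69893934 to 69894233, with the match in capitals at 69894062 to 69894073. Its nearer edge was 14 bases from the summit, and it reads CCACTAGGAGGC on the opposite strand.
Yjefn3: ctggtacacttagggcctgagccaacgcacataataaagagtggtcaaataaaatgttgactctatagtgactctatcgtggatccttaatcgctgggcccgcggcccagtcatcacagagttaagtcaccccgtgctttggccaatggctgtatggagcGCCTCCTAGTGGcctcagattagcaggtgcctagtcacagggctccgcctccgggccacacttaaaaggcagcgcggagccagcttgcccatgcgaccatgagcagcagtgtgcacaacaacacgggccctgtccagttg

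For 4 of the 6 kinases the number of summits lay between the 25th and 75th percentiles of genes with as many neighbours. That span leaves out many genes by definition, so 4 of 6 is not read as a trait of the members. The 6 genes had 6, 6, 7, 6, 15 and 8 summits in the order Tssk1 to Tssk6, with a median of 6.5, against 5 for all protein-coding genes. Their windows held 6, 6, 6, 11, 10 and 6 coding genes, against a median of 4. Genes with 6 coding genes in the window had a median of 7 summits (25th and 75th percentiles 4 and 10), a range that takes in Tssk1, Tssk2, Tssk3 and Tssk6. Tssk5 lay above the 75th percentile and Tssk4 below the 25th percentile of genes with as many neighbours. Of genes with 10 coding genes in the window, as at Tssk5, 10.4% had 15 or more summits.

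**Figure D3:**
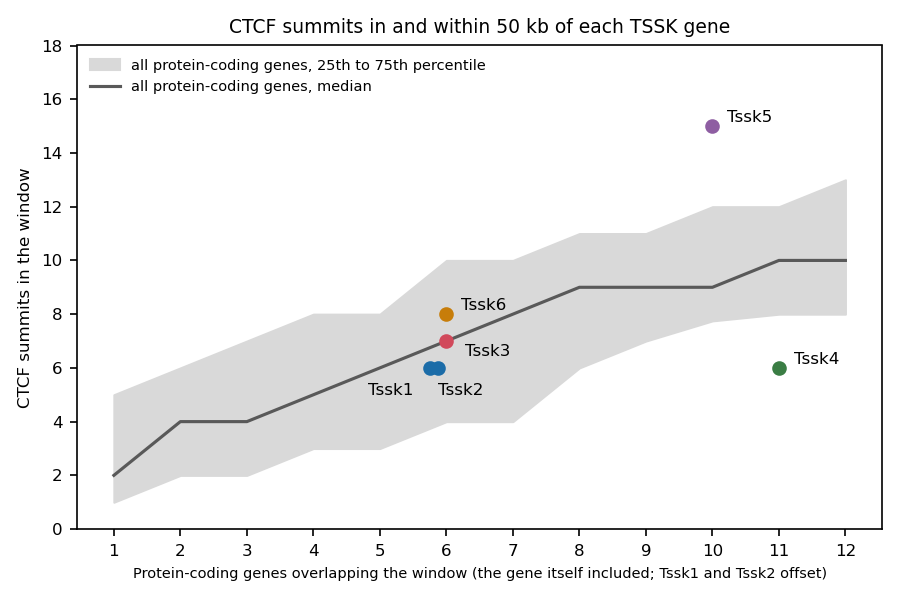
CTCF summits in the gene and within 50 kb of it (y axis) against the number of protein-coding genes overlapping that window (x axis), with the median (line) and the 25th to 75th percentile (band) of all protein-coding genes and 1 point for each TSSK gene. Tssk5, with 15 summits, lies above the band, and Tssk4, with 6, below it.

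Sites at gene ends were set against similarly gene-dense windows, and no difference can be read from 5 loci. Of the 42 summits, 19 (45.2%) lay within 1 kb of an end of a coding gene, against 16.3% of all peaks. That background holds peaks far from genes. In the windows of the 4534 protein-coding genes with 6 to 11 coding genes around them, 37.7% of gene and peak pairs were so placed. For the 6 kinases it was 43.8% of 48 pairs, in which the peaks of Tssk1 and Tssk2 count for each gene. By locus, the share of summits at a gene end was 83.3% at Tssk4 and from 33.3% to 42.9% at the others. With the listed transcription starts alone, 2 of the 5 kinases that have one (Tssk3 and Tssk6) had a summit within 1 kb, against 37.1% of 17274 genes. The listed starts of Tssk4, Tssk2 and Tssk1 were 10.3, 12.8 and 17.3 kb from their nearest summit. The listed start of Tssk4 (55650184) lies inside the annotated gene, which begins at 55643651. That of Tssk3 (129490770, minus strand) also lies inside its gene, which reaches 129491730.

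Fold and −log10 q ranked the peaks differently. Among the 9 with a fold from 6 to 8, the −log10 q ran from 16.8 at the Hdac1 summit near Tssk3 to 61.8 at the Ess2 summit near Tssk2. Over all 11803 peaks in that range of fold the median was 30.1, with 10th and 90th percentiles of 16.1 and 60.2. The peak at Tssk3 was thus near the lower limit for its fold, and the peak at Ess2 near the upper. The local input signal behind each fold was not analysed here.

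**Figure D4:**
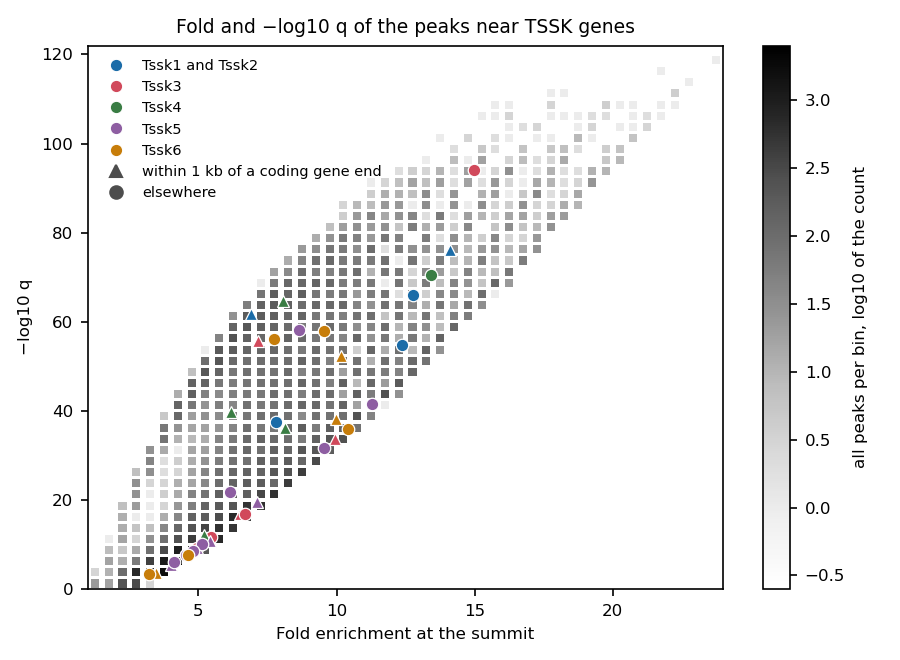
Fold enrichment at the summit (x axis) against −log10 q (y axis) for the 42 peaks near TSSK genes, coloured by locus, with triangles for summits within 1 kb of a coding gene end and circles for the others. Grey squares give the number of all peaks per bin on a log10 scale, and most of the Tssk5 peaks lie at the lower left.

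Genes that work with the TSSK kinases or resemble them were compared by the same measure, as counts without a test. A gene-end summit was present for 6 of 11 genes of TSSK partners, substrates and regulators (54.5%), against the 39.1% of all coding genes. It was highest at Tsks, which encodes the shared substrate of TSSK1 and TSSK2, with a fold of 7.54. H2ax, a histone gene tied to TSSK6 in the condensing spermatid, followed with 6.34 and the chaperone gene Hspa8 with 5.27. At Tsacc, which encodes a co-chaperone that activates TSSK6, the fold was 4.34.

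Among 17 AMPK-related kinases of the same kinase group, 10 had a gene-end summit (58.8%), led by Sik3 with 12.2, Prkaa1 with 7.20 and Sik2 with 5.92. Prkaa1 encodes a catalytic subunit of AMPK, and Sik2 and Sik3 are salt-inducible kinases. Among 11 other kinases of germ cells, 6 had one (54.5%), led by Tesk1 with 11.7, Tesk2 with 9.98 and Prkaca with 9.89. The first 2 are testis-associated kinases, and Prkaca encodes the catalytic subunit of protein kinase A, which sperm need for motility. The TSSK genes had a smaller share, 2 of 6, but 6 genes are too few to read a difference from it.

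At the edge of the 50 kb rule, the last summit inside and the first outside were 45.0 and 60.3 kb from Tssk1 (folds 12.8 and 2.92) and 49.5 and 64.8 kb from Tssk2, for the same peaks. They were 48.5 and 51.1 kb from Tssk3 (6.67 and 10.5), and 39.6 and 61.2 kb from Tssk4 (8.13 and 14.1). For Tssk5 they were 48.3 and 77.3 kb away (4.13 and 3.20), and for Tssk6 48.1 and 52.1 kb (4.60 and 6.23). The first summit outside had a higher fold than the last inside at Tssk3, Tssk4 and Tssk6, and at Tssk3 and Tssk6 it was the closest to the limit.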

How the data were processed

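One deposited CTCF peak list was used. The submitters' processing notes name MACS2 2.2.7, BWA 0.7.12 and mm10 without a role. The names of the peaks include bio2 and merged, and how many of the 2 samples of immunoprecipitated DNA went into the list was not settled. Per peak, the list holds the fold enrichment (a ratio deposited by the authors) and the −log10 q deposited by the authors. The score and −log10 p that the authors deposited were not used. All such values are the authors', used to describe, rank or filter peaks within the list. The lowest −log10 q was 1.308.

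A summit was the peak start plus the deposited offset, counted from 1. Genes were those of the RefSeq table of GRCm38.p6, whose coordinates are those of mm10, on the 19 autosomes and X and starting at 3 Mb or beyond. RefSeq promoter windows of the same build were listed for 5 of the 6 members (not Tssk5). Those of Tssk3 and Tssk4 are set at a listed start inside the annotated gene, not at its end. Backgrounds were the same measures over all protein-coding genes, all peaks or all promoter windows. No test was made, since the list has no value per sample. The counting was tested on simulated data. Alternatives were windows of 25 and 100 kb, gene-end windows of 500 bp and 2.5 kb, a fold of at least 5, a −log10 q no lower than the median (29.5), any base of a peak in place of the summit, listed starts only, and a motif with its first free base fixed. The 10 kb background was added after the data were seen. Named genes were the members, the genes nearest to their peaks and the 3 highest gene-end folds of each other list; Tsacc was added after its value was seen. Members and lists were chosen with earlier results of these data known. Python 3.11.15, pandas 2.3.3 and matplotlib 3.10.9 were used.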

Additional observations from a re-analysis of the deposited data

How the results depend on the processing

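The count of 42 peaks became 22 within 25 kb, 76 within 100 kb and 20 among peaks whose −log10 q reached the median of the list; it was 28 with a fold of at least 5 and 42 with any base of the peak. The 2 members with a gene-end summit stayed 2 in every alternative except that limit on −log10 q, which left 1, since the Tssk3 peak fell below that limit. The median of 6.5 summits per member became 3.5 within 25 kb and 14.5 within 100 kb, as the windows are narrower or wider. The median fold of 6.59 was 6.17 within 25 kb and 6.73 within 100 kb, and the median −log10 q was 20.7. With a fold of at least 5 the nearest summit was 0.623 kb from Tssk6 and 5.71 kb from Tssk5. At the limit on −log10 q, the nearest summit was 22.8 kb from Tssk3 and 35.7 kb from Tssk5. Within 25 kb the highest fold fell to 6.92 near Tssk1, 7.80 near Tssk2, 7.16 near Tssk3 and 7.14 near Tssk5. No paired analysis was possible because the list carries no value per sample, and no replicate could be left out for the same reason. With the depth unknown, weak sites may have been missed.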

Other observations

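The promoters of the TSSK genes differed in base composition. GC content was 60.7% at Tssk6, 59.7% at Tssk2, 59.3% at Tssk3, 50.7% at Tssk1 and 43.3% at Tssk4, against a median of 52.7% over all promoter windows and 63.7% over those with a CTCF summit inside. CG dinucleotides numbered 14 at Tssk6, 10 at Tssk3, 6 at Tssk2 and 2 each at Tssk1 and Tssk4, against a median of 7 over all promoter windows and 25 over those with a summit inside. The 2 members with a summit close to the start, Tssk6 and Tssk3, had the most CG dinucleotides of the 5, a description over 5 windows.

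Among the 10 pairs of these 5 promoters, the longest run of identical bases on the same strand was 11 bases, shared by the tandem genes Tssk1 and Tssk2. It begins 20 bases upstream of the start of Tssk1 and 33 bases upstream of that of Tssk2, and it occurs in 6 of 32851 promoter windows. The other 9 pairs shared at most 7 to 10 bases. The stretches around it (chromosome 16, 17894143 to 17894222 and 17898577 to 17898656, plus strand) are printed with the shared run in capitals.
Tssk1: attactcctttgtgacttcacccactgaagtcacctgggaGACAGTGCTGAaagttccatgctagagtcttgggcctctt
Tssk2: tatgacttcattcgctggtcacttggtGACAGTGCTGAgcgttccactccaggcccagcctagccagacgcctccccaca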
